A study of Mus musculus with 27 samples.

Results

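The angiopoietin-like genes *Angptl1*, *Angptl2*, *Angptl4* and *Angptl6* were described in whole mouse retina in the oxygen-induced retinopathy (OIR) model. They were taken by symbol from the deposited expression table, in which they are 4 of 40129 genes. All mice were wildtype pups, of strain C57BL/6 in the labels and C57BL/6J in the study's methods. In the OIR groups the pups went through a period of high oxygen, which removes central retinal vessels, and were then returned to room air. The controls (nOIR) stayed in room air throughout. Retinas were taken at postnatal day 14 (p14), the ischemic phase, or at p17, when retinal neovascularization (RNV) is present. At p14, 6 control and 6 OIR mice were compared, and at p17, 6 control and 8 OIR mice, so that 26 mice entered the comparison. Another nOIR p14 mouse, S4, was left out as in the study's methods, and its values are given where they matter. One library held the retina of one eye or the pooled retinas of both eyes of a pup. In every group the study gives fewer litters than mice, so some pups shared a litter. The labels do not tie litters to single mice, so p-values measure the spread between mice only.

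Angiopoietin-like proteins are secreted glycoproteins built like the angiopoietins, with an amino-terminal coiled coil and, in most members, a carboxy-terminal fibrinogen-like domain, but they are not ligands of the angiopoietin receptor Tie2. ANGPTL2 is known as a pro-inflammatory factor that binds integrin alpha5 beta1 and, in mice, the paired immunoglobulin-like receptor PirB. ANGPTL4 inhibits lipoprotein lipase, the enzyme that releases fatty acids from circulating triglycerides at the vessel wall, and its gene is a known target of both PPAR nuclear receptors and hypoxia. ANGPTL1 is known as an inhibitor of angiogenesis, and ANGPTL6 as a circulating growth factor with metabolic roles.

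Values are normalized reads, that is, read counts divided by a size factor for each library. The 27 libraries, that of the omitted mouse included, held between 17029536 and 33593428 reads in genes (median 30024568), and 1 read was worth between 0.824 and 1.56 normalized reads. The 5 rod markers were the strongest of the marker sums, between 841209 and 1554100 normalized reads, and rods are the most numerous cells of the retina. Lens markers varied widely, from 40.0 to 29106 normalized reads in sum, and retinal pigment epithelium markers from 1185 to 8718. Neither list had a member that passed the test between OIR and nOIR at either age. A gene was called when its Benjamini-Hochberg adjusted p in limma, over the 27137 genes that averaged 1 or more normalized reads, was under 0.05.

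The RefSeq promoter table (GRCm38.p6) held 3 of the 4 genes, all but *Angptl4*. Upstream sequence is shown for *Angptl2*, the gene with the largest response, and for *Angptl6*, which was not called, each over 250 bases that end at the base before the annotated start. *Angptl2* lies on the plus strand (chr2:33215711-33215960) and *Angptl6* on the minus strand (chr9:20879711-20879960). Capitals mark matches to a GC box, GGGCGG on either strand.
Angptl2: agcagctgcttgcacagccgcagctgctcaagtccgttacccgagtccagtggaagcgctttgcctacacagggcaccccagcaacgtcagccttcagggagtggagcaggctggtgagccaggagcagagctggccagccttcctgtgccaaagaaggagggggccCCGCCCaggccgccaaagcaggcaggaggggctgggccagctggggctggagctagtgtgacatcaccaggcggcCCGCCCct
Angptl6: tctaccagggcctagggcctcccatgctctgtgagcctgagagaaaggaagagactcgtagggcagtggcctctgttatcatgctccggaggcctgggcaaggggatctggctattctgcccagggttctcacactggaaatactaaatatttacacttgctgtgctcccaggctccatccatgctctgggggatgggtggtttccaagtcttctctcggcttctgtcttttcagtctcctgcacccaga
The *Angptl2* window held 2 matches, both on the reverse strand, which begin 83 and 8 bases before the start. At least 1 such match was present in 32.7% of 32851 annotated upstream windows of the same length. No window of *Angptl1*, *Angptl2* or *Angptl6* held the hypoxia response element core as ACGTG or GCGTG on either strand, and 38.6% of all windows held either form. The AP-1 motif TGACTCA (4.46% of windows) and TATAAA (12.4%) were likewise not among their letters. The *Angptl2* window was 66.8% G and C, against 54.8% for *Angptl1* and for *Angptl6* and a median of 52.4% over all windows.

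*Angptl2* rose in OIR retina at both ages, by a factor of 3.31 at p14 and 5.73 at p17. In nOIR p14 retinas it was measured at 79.9 to 128 normalized reads (median 105), and in OIR p14 retinas at 242 to 640 (median 308). Every OIR p14 mouse was above every nOIR p14 mouse. In nOIR p17 retinas the range was 57.6 to 125 (median 117), and in OIR p17 retinas 411 to 769 (median 638). Again the groups did not overlap, with means of 106 ± 25.7 (SD, n = 6) and 604 ± 116 (n = 8). At p14 the log2 fold change was 1.73 (SE 0.21, 95% interval 1.30 to 2.15, limma adjusted p = 1.55e-06), and at p17 it was 2.52 (SE 0.20, 2.12 to 2.92, adjusted p = 9.26e-11). The exact two-sided permutation test gave p = 0.00216 at p14 and p = 0.000666 at p17, the smallest values these group sizes allow. At p14, 3.18% of all genes tested were called higher in OIR, and at p17 7.39% were. With a log2 fold change above 2, *Angptl2* also met the study's definition of a differentially expressed gene at p17, as 1.9% of genes tested did on the higher side.

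One OIR p14 mouse, S4, had 640 normalized reads of *Angptl2*, against 353 for the next highest mouse of its group. Its value lay within the OIR p17 range. Without it the OIR p14 rise was 1.54 on the log2 scale (limma adjusted p = 3.83e-06). From p14 to p17 *Angptl2* increased within OIR by 0.81 on the log2 scale (SE 0.20, adjusted p = 0.00914), and 4.11% of genes tested were called higher in that comparison. All 8 OIR p17 mice were above the OIR p14 median and 4 of 8 were above every OIR p14 mouse. In nOIR retina the change from p14 to p17 was 0.02 (95% interval -0.41 to 0.44) and was not called. Over that age step 0.317% of genes tested were called in either direction and none of the 4 genes was. The OIR effect at p17 was larger than at p14 by 0.79 (SE 0.29, 95% interval 0.21 to 1.38), which did not pass adjustment over all genes (adjusted p = 0.229). Without mouse S4 that difference was 0.98 with an adjusted p of 0.0426, so whether it was called depended on this animal.

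**Figure D1:**
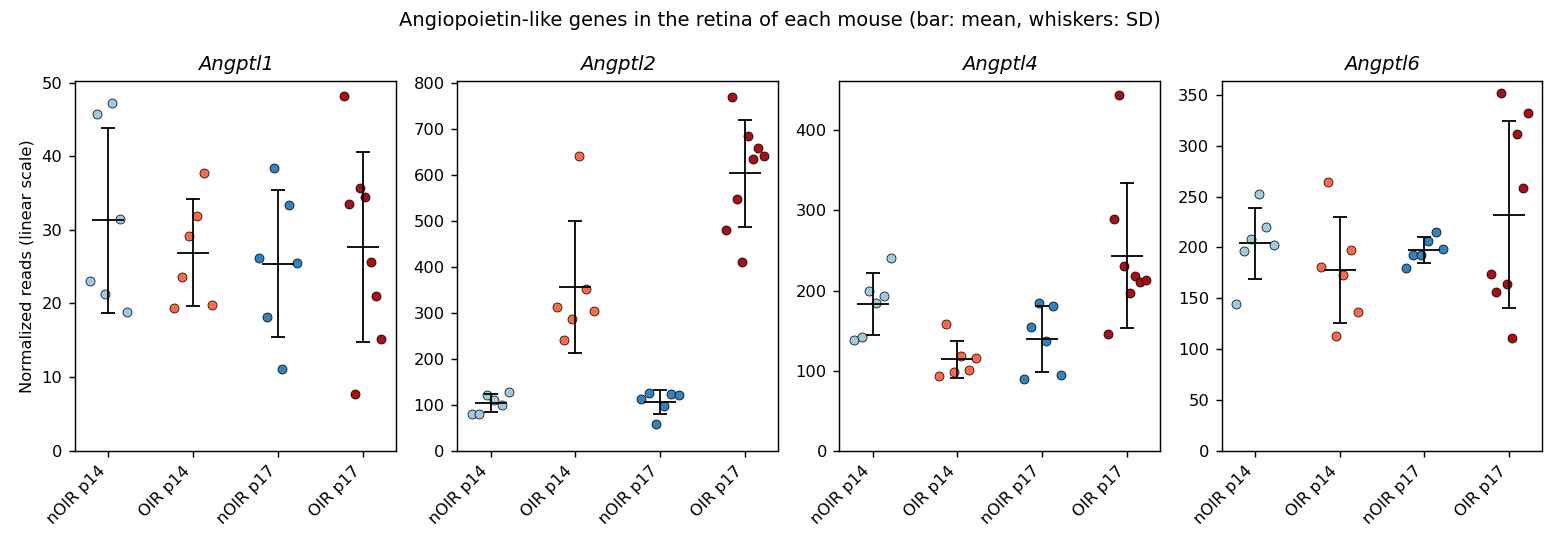
Normalized reads of the 4 angiopoietin-like genes (linear y axis starting at 0) in each mouse of the 4 groups, with points for mice, a bar for the mean and whiskers for the SD. *Angptl2* separates OIR from nOIR mice at both ages, *Angptl4* is lower in OIR than in nOIR at p14 in most mice and higher at p17, and *Angptl6* spreads on both sides of its controls in OIR p17 mice.

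*Angptl4* responded differently at the 2 ages. In nOIR p14 retinas it was measured at 139 to 241 normalized reads (median 189), and in OIR p14 retinas at 93.3 to 158 (median 108). In 5 of 6 OIR p14 mice the value was below every nOIR p14 mouse, and mouse S2 with 158 was the exception. The log2 fold change at p14 was -0.68 (SE 0.22, 95% interval -1.13 to -0.22), with an unadjusted p of 0.00475 and a limma adjusted p of 0.0685, so it was not called. In this comparison 2.91% of genes tested were called lower. The exact permutation test of this gene alone gave p = 0.00649.

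At p17 *Angptl4* rose by a factor of 1.72. The nOIR p17 mice were measured at 89.2 to 184 normalized reads (median 145) and the OIR p17 mice at 146 to 444 (median 215). In 7 of 8 OIR p17 mice the value was above every nOIR p17 mouse, and only mouse S1, which also had the smallest library, fell within the control range. Mouse S3 was the highest with 444, against 290 for the next. The log2 fold change was 0.78 (SE 0.21, 95% interval 0.36 to 1.20, limma adjusted p = 0.00912), and the exact permutation p was 0.00533. Without mouse S3 it was 0.65 (adjusted p = 0.0208). The highest adjusted p over all fits without 1 mouse was 0.0377, without nOIR p17 mouse S1.

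The change of the *Angptl4* OIR effect between the ages was 1.46 on the log2 scale (SE 0.30, 95% interval 0.84 to 2.08) and passed the test (limma adjusted p = 0.00629). Among all genes tested 1.43% were called with a larger effect at p17. Within OIR, *Angptl4* rose from p14 to p17 by a factor of 2.06 (log2 1.04, SE 0.21, adjusted p = 0.00139), and 7 of 8 OIR p17 mice were above every OIR p14 mouse. In nOIR retina its level at p17 was lower by 0.41 on average, with a 95% interval of -0.87 to 0.04 (adjusted p = 0.747), and the ranges overlapped. Ordered by mean, the level was lowest in OIR p14 (114 ± 23.7, SD, n = 6), followed by nOIR p17 (140 ± 41.2, n = 6), nOIR p14 (183 ± 38.4, n = 6) and OIR p17 (244 ± 90.1, n = 8). The ranges of each neighbouring pair in that order overlapped. The nOIR p14 mouse S4, left out here, had 100 normalized reads of *Angptl4*, below the other 6 controls of its age. With it the p14 log2 fold change was -0.56 (adjusted p = 0.157) and the difference between ages 1.34 (adjusted p = 0.0167).

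**Figure D2:**
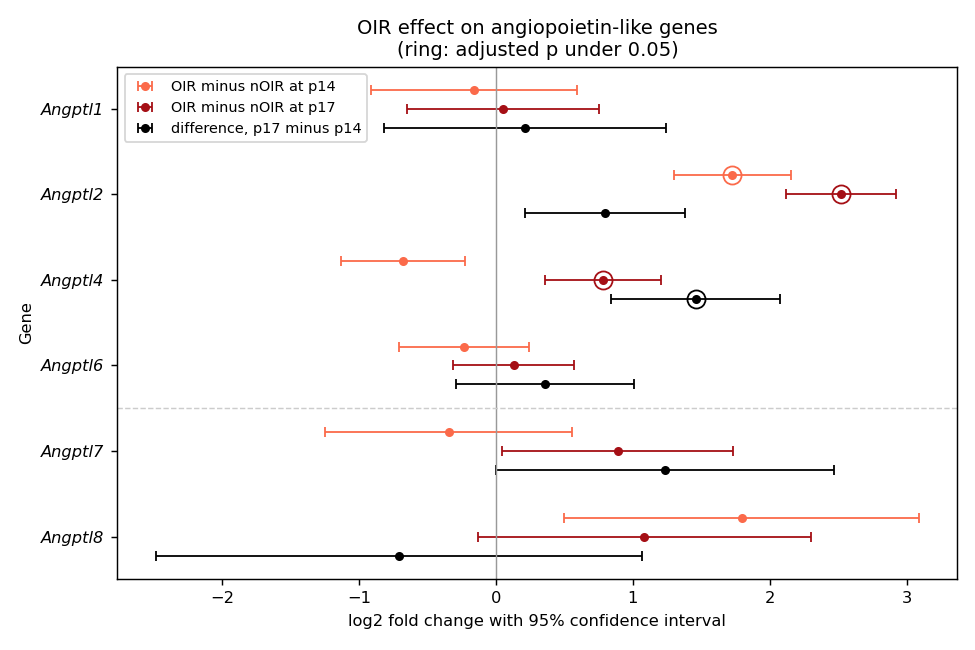
Log2 fold changes (x axis) with 95% confidence intervals from limma for 6 angiopoietin-like genes (y axis), for OIR against nOIR at p14, at p17 and for the difference between the ages, with rings around values with an adjusted p under 0.05. *Angptl2* is ringed at both ages, and *Angptl4* changes side between p14 and p17 and is ringed at p17 and for the difference.

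*Angptl1* was the least abundant of the 4 genes and was not called in any comparison. It was measured at 18.8 to 47.3 normalized reads in nOIR p14 mice, 19.3 to 37.7 in OIR p14, 11.0 to 38.4 in nOIR p17 and 7.69 to 48.2 in OIR p17. All 4 ranges overlapped, and the medians lay between 25.8 and 29.6. At p14 its log2 fold change was -0.16 (95% interval -0.91 to 0.59, limma adjusted p = 0.902), and at p17 it was 0.05 (-0.65 to 0.76, adjusted p = 0.954). These intervals leave room for a change in either direction, so a lack of change was not shown.

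*Angptl6* was likewise not called. Its values were 145 to 252 normalized reads in nOIR p14 mice (median 205), 113 to 264 in OIR p14 (median 177), 179 to 215 in nOIR p17 (median 196) and 111 to 352 in OIR p17 (median 217). At p14 its log2 fold change was -0.23 (95% interval -0.70 to 0.24, limma adjusted p = 0.709), and at p17 it was 0.13 (-0.31 to 0.57, adjusted p = 0.80). The OIR p17 mice did not lie among their controls, however. Mice S3, S6, S7 and S8 had 352, 311, 259 and 332 normalized reads, all above every nOIR p17 mouse, and mice S1, S2, S4 and S5 had 174, 156, 164 and 111, all below every one. The coefficient of variation was 39.8% in OIR p17 and 6.30% in nOIR p17, and it was 17.2% in nOIR p14 and 29.6% in OIR p14. Set against the wider nOIR p14 range, mice S1, S2 and S4 would lie inside it. This difference in spread was not tested.

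The level of *Angptl6* within groups moved with a pattern that many genes shared. The first principal component of the variation left after group means were subtracted held 17.1% of that variation over 19004 genes that averaged 10 or more normalized reads. This component was computed after the values were seen. The OIR p17 mice S1 to S8 had scores of -58.7, -27.6, 27.8, -15.8, -41.3, 2.15, 32.4 and 81.1, in that order. Over the 26 mice, the correlation of the component with the group-centred level was 0.69 for *Angptl6*, 0.38 for *Angptl4*, 0.11 for *Angptl2* and -0.43 for *Angptl1*, where each point is 1 library and the genes are among those that built the component. The part of this component in the *Angptl6* values was not tested. Mouse S1 had the lowest score of all and the smallest library, and mouse S8 the highest score.

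**Figure D3:**
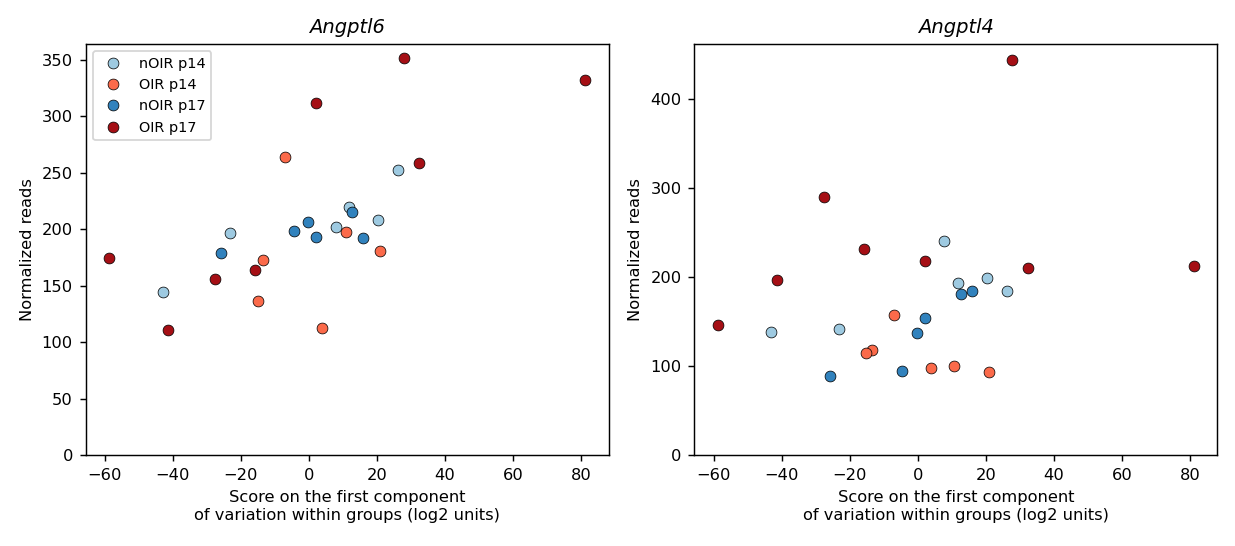
Normalized reads of *Angptl6* and *Angptl4* (y axes, linear from 0) against the score of each mouse on the first component of variation within groups (x axis, log2 units), with 1 point per mouse coloured by group. *Angptl6* is higher in mice with higher scores, most visibly in OIR p17, where the scores run from -58.7 to 81.1.

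Counts divided by exon length allow levels to be set side by side between genes. Per kilobase of exon in GENCODE M21, control retinas at p14 had 129 ± 22.2 normalized reads of *Angptl6*, 51.7 ± 10.9 of *Angptl4*, 16.4 ± 3.21 of *Angptl2* and 11.0 ± 4.42 of *Angptl1* (SD, n = 6). In OIR p17 retinas the corresponding levels were 147 ± 58.4, 68.8 ± 25.4, 96.0 ± 18.5 and 9.75 ± 4.56 (SD, n = 8). In OIR p14 retinas *Angptl2* had 56.7 ± 22.9 and *Angptl4* 32.1 ± 6.69 (SD, n = 6). By group means, *Angptl2* was thus below *Angptl4* in controls and above it in OIR retinas at both ages. In 2 further members of the family no comparison of OIR with nOIR was called. *Angptl7*, best known from cornea and trabecular meshwork, had 5.31 to 8.995 normalized reads per kilobase as group means. *Angptl8*, which encodes a small member without the fibrinogen-like domain, had 2.00 to 7.89 and was at 0 in some mice of 3 groups. Its p14 log2 fold change of 1.80 missed the threshold (limma adjusted p = 0.101).

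**Figure D4:**
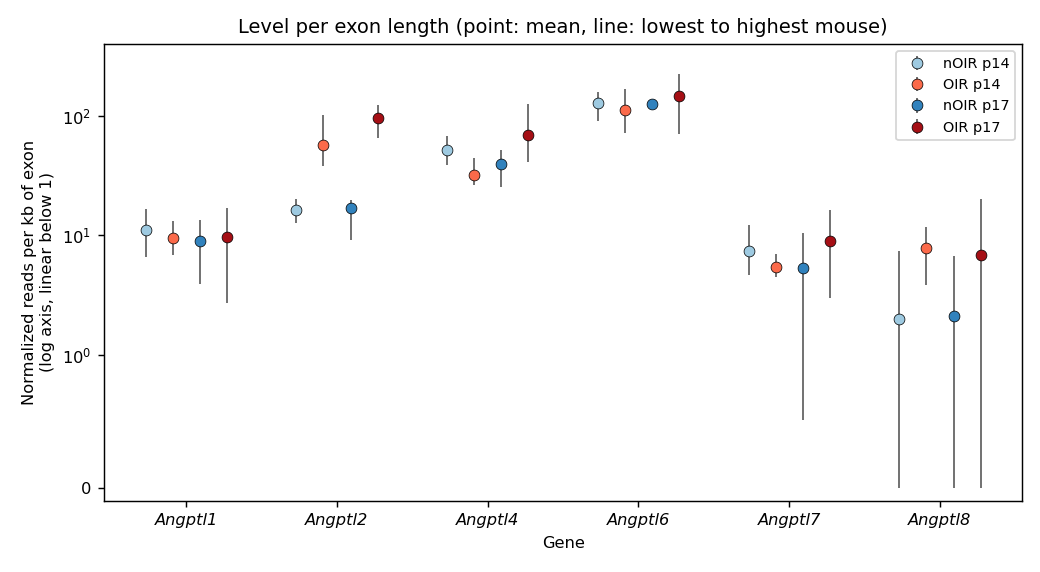
Normalized reads per kilobase of exon (log y axis, linear below 1) of 6 angiopoietin-like genes in the 4 groups, with points for group means and lines from the lowest to the highest mouse. *Angptl6* has the highest group means, and *Angptl2* moves from 16.4 in nOIR p14 to 96.0 in OIR p17.

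The genes lie on different chromosomes (*Angptl1* on 1, *Angptl2* on 2, *Angptl4* on 17 and *Angptl6* on 9). *Angptl1* and *Angptl2* lie inside the genes *Ralgps2* and *Ralgps1*, on the opposite strand and with 0 shared exon bases in GENCODE M21. The libraries do not keep strand, so unspliced reads of the host gene over a member's exons cannot be told apart from its own. *Ralgps1* averaged 2263 normalized reads, and its change was 0.04 on the log2 scale at p14 (limma adjusted p = 0.944) and -0.10 at p17 (0.726). *Ralgps2* had -0.03 and -0.13. These totals count reads over the exons of the host genes. The part of unspliced host reads in the values of *Angptl1* and *Angptl2* was not tested. *Angptl6* overlaps *Shfl* (-0.24 and -0.03) in the RefSeq table, and *Ppan* (0.21 and 0.10) lies within 10 kb. The small nucleolar RNA gene *Gm23546* near *Angptl2* averaged 0.640 normalized reads and was too low to be tested. None of the tested neighbours of these 4 genes was called. *Dock6*, which overlaps *Angptl8*, was called higher at p17 (0.88, limma adjusted p = 0.000481).

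The hypoxia targets, to which *Angptl4* is often counted, were called higher at p14 in many cases, whereas *Angptl4* was not. Of 20 genes other than *Angptl4*, 10 rose at p14 and 14 at p17, and none fell, where 3.18% and 7.39% of all genes rose. The list had a median of 0.49 on the log2 scale at p14 and of 0.58 at p17, against 0.02 and -0.02 over all genes tested. The largest rises at p17 were those of *Adm*, which encodes the vasodilator peptide adrenomedullin (3.03 at p14 and 5.52 at p17), and *Car9*, a carbonic anhydrase (3.98 and 4.90). *Vegfa*, the main angiogenic growth factor, rose by 0.66 and 1.49. All 20 hypoxia genes had a positive value at p14, whereas that of *Angptl4* was -0.68.

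Of 16 PPAR receptors and target genes, 1 rose and 2 fell at p14, and 2 rose and 2 fell at p17, with medians of -0.14 and -0.06. Over all genes tested 3.18% were called higher and 2.91% lower at p14, and 7.39% and 5.12% at p17. The lipid droplet coat gene *Plin2* (0.30 at p14 and 1.20 at p17) and the receptor gene *Ppard* (0.27 and 0.52) rose at p17. *Ehhadh* (0.09 and -0.67) and *Fabp3* (-0.42 and -0.52) fell at p17. At p14 *Fabp4* rose (0.94) and *Acaa1a* (-0.67) and *Slc25a20* (-0.46) fell. The receptor genes *Ppara* (-0.17 and -0.10) and *Pparg* (-0.28 and 1.56) were not called, and *Pparg* was measured at 0 to 39.0 normalized reads.

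Of 16 measured genes for lipoprotein lipase and its handling, 0 rose and 1 fell at p14, and 1 rose and 0 fell at p17. These counts lay near the shares over all genes, 3.18% higher and 2.91% lower at p14 and 7.39% and 5.12% at p17. *Lpl* itself, the target of ANGPTL4, was not called (0.17 at p14, adjusted p = 0.538, and -0.22 at p17, adjusted p = 0.25). *Gpihbp1*, the endothelial anchor of lipoprotein lipase, rose by 3.50 on the log2(normalized reads + 1) scale at p17 (SE 0.50), from 0 to 5.31 normalized reads in nOIR p17 mice to 9.08 to 69.5 in OIR p17 mice, and had -0.50 at p14. Its difference between the ages of 3.996 passed the test (limma adjusted p = 0.0017), as that of *Angptl4* did. *Apoe*, which encodes a lipoprotein ligand of clearance receptors, fell at p14 (-0.62).

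Of 13 genes for reported binding partners of angiopoietin-like proteins, 6 rose at p14 and 8 at p17, and none fell, with medians of 0.39 and 1.08. Over all genes tested 3.18% rose at p14 and 7.39% at p17, with medians of 0.02 and -0.02. The integrin genes *Itga5* (0.64 at p14 and 1.85 at p17) and *Itgb1* (0.39 and 1.11), whose products form the alpha5 beta1 receptor of ANGPTL2, rose at both ages. The largest rises were those of the leukocyte receptor gene *Lilrb4a* (2.94 and 3.73) and the integrin gene *Itgb3* (2.15 and 2.14). *Pirb* had 1.59 at p14, which was not called, and 1.99 at p17, which was. *Pirb* and *Lilrb4a* belong to families of similar receptors that can share reads, so their counts are uncertain. With the replicate number as a block the p14 count was 3 in place of 6.

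Among 6 angiopoietin and Tie receptor genes, 1 rose and 1 fell at p14, and 2 rose and 0 fell at p17. The shares over all genes were 3.18% higher and 2.91% lower at p14, and 7.39% and 5.12% at p17. *Angpt2* rose at both ages (0.88 and 2.88) and *Tie1* at p17 (1.62, after -0.46 at p14). *Ptprb*, which encodes a phosphatase of Tie2, fell at p14 (-0.93). *Angpt1* (-0.44 and -0.29), *Angpt4* (-0.74 and -1.06) and *Tek*, the Tie2 gene (-0.48 and 0.29), were not called. *Angpt2* and *Angptl2* were thus both called higher in OIR at each age.

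**Figure D5:**
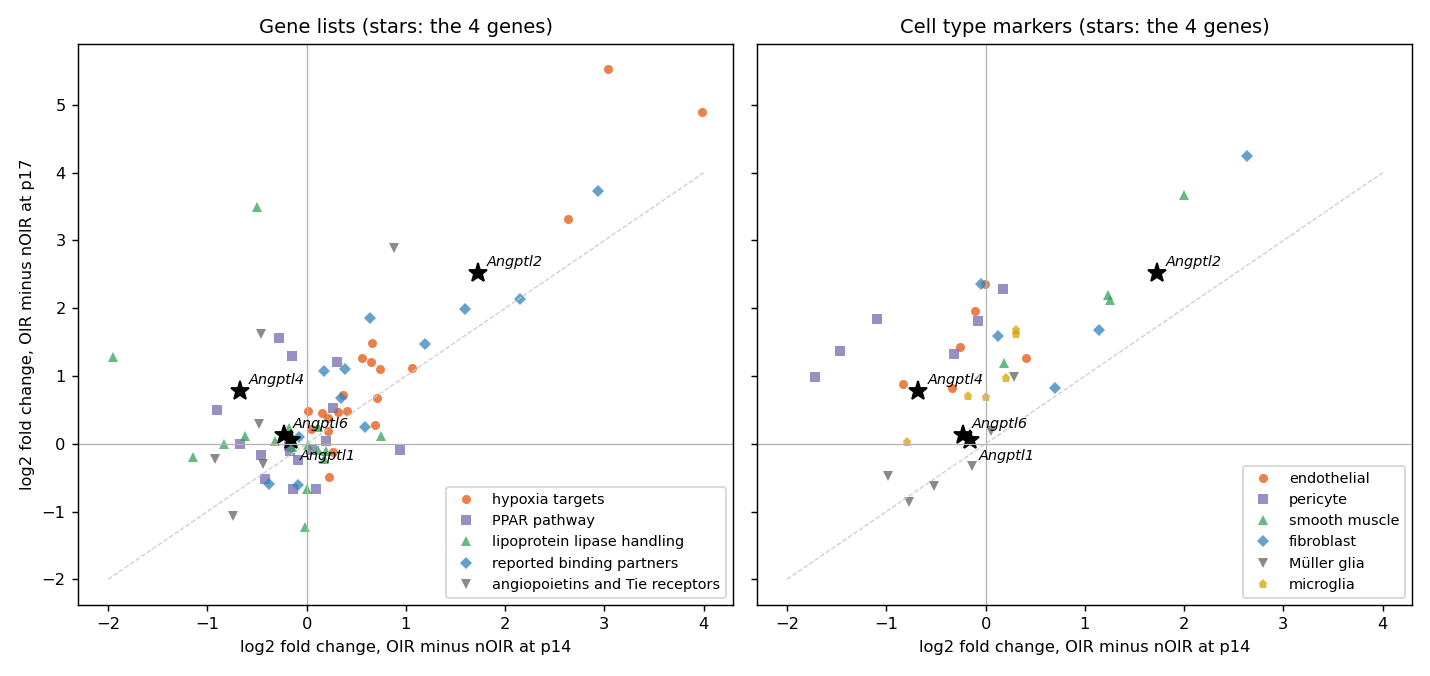
Log2 fold change of OIR against nOIR at p14 (x axis) and p17 (y axis) for single genes of 5 gene lists (left) and 6 cell type marker lists (right), with stars for the 4 angiopoietin-like genes and a dashed line of equal values. *Angptl4* at -0.68 and 0.78 lies left of the hypoxia targets, which have values of 0.02 or more at p14, and *Angptl2* at 1.73 and 2.52 lies in the upper right.

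In whole retina, fewer cells of a type and less RNA per cell cannot be told apart, so marker genes were set beside both responses. The marker counts stand against 3.18% higher and 2.91% lower over all genes at p14, and 7.39% and 5.12% at p17. The 6 endothelial markers had a median log2 fold change of -0.18 at p14, with 1 higher (*Pecam1*, 0.40) and 1 lower (*Cldn5*, -0.83). All 6 rose at p17, with a median of 1.35. Their summed level was 2019 to 3202 normalized reads in OIR p14 mice and 2826 to 3493 in nOIR p14 mice, and 5395 to 7459 in OIR p17 against 2555 to 3270 in nOIR p17. *Angptl4* amounted to 5.88 ± 1.07% of that sum in nOIR p14 (SD, n = 6), 4.59 ± 1.43% in OIR p14, 4.79 ± 1.13% in nOIR p17 and 4.01 ± 1.06% in OIR p17 (n = 8). The ranges of this share overlapped between OIR and nOIR at both ages. The share was chosen after the values were seen, and the part of endothelial RNA in the *Angptl4* changes was not tested.

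Of the 6 pericyte markers, 3 were lower at p14 (median -0.71) and all 6 were higher at p17 (median 1.59). Of 6 Müller glia markers, 3 were lower at p14 and 4 lower and 1 higher at p17. Of 5 rod markers, 1 was lower at p14 (median -0.30) and 2 were lower at p17 (median -0.22), and 0 had a positive value at either age. Adipocyte markers, whose cells express *Angptl4* strongly, were near 0, with sums of 0.824 to 26.5 normalized reads and 2 of 4 markers too low to be tested. None of 8 retinal pigment epithelium markers was called. With the log2 level of the pigment epithelium gene *Rpe65* as a covariate, the *Angptl4* difference between the ages was 1.51 (limma adjusted p = 0.00137), and with the lens gene *Cryaa* it was 1.46 (adjusted p = 0.00439).

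Beside *Angptl2*, 2 of 5 fibroblast markers were higher at p14 and 3 at p17, led by *Col1a1* (2.63 and 4.25), and 2 of 4 smooth muscle markers were higher at p14 and all 4 at p17. The fibroblast sum was 795 to 1295 normalized reads in nOIR p14, 939 to 1924 in OIR p14, 565 to 963 in nOIR p17 and 1394 to 4050 in OIR p17. *Angptl2* amounted to 11.6 ± 3.02% of it in nOIR p14, 25.1 ± 4.83% in OIR p14, 14.9 ± 4.70% in nOIR p17 (SD, n = 6 each) and 29.1 ± 6.35% in OIR p17 (n = 8). Against the smooth muscle sum the same gene amounted to 31.05 ± 6.10%, 33.9 ± 10.5%, 46.1 ± 18.9% and 27.2 ± 9.68%. Against the endothelial sum it was 3.31 ± 0.50%, 13.7 ± 3.42%, 3.70 ± 0.96% and 10.2 ± 2.29%, and against the pericyte sum 2.75 ± 0.48%, 16.5 ± 3.22%, 3.22 ± 0.78% and 5.72 ± 1.08%, in the same order of groups. Against the endothelial and the pericyte sum its range in OIR lay above that in nOIR at both ages, and against the fibroblast sum it did so at p14 while the ranges overlapped at p17. Against the smooth muscle sum the ranges overlapped at both ages. These shares of *Angptl2* were also chosen after the values were seen. Of 6 microglia markers none was called at p14 and 4 were higher at p17. Of 4 astrocyte markers 2 were higher at p14 and 3 at p17, led by *Gfap* (3.23 and 3.68). Of 4 perivascular macrophage markers none was called at p14, and 3 were higher and 1 lower at p17. The 4 red blood cell markers, hemoglobin genes, were not called at p14 and all rose at p17 (median 3.13). The part of each of these cell types in the *Angptl2* rise was not tested.

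The genes whose log2 levels were most like *Angptl2* over the 26 mice were *Mrc2*, a collagen receptor gene (Pearson r 0.96), *Msn* (0.95), *Tnfrsf1a* (0.95), *Col1a1* (0.95) and *Capg* (0.95), among 19004 genes. After group means were subtracted these were 0.65, 0.45, 0.52, 0.68 and 0.37, and the highest were *Col3a1* (0.75), *Col1a1* (0.68) and *Kpna6* (0.68). Most like *Angptl4* were *Hspb1* (0.82), *Ramp2* (0.81), *Tubb5* (0.80), *Cldn5* (0.78) and *Icam2* (0.78). *Cldn5* encodes the tight junction claudin of endothelium and *Icam2* an endothelial adhesion molecule. All 5 genes had, like *Angptl4*, a negative value at p14 and a positive one at p17. They were picked by likeness with the group differences left in, so these shared signs follow largely from the choice. After group means were subtracted their correlations were 0.60, 0.59, 0.61, 0.42 and 0.59. After centring the highest were *Limd2* (0.80), *Enho* (0.77) and *Actb* (0.76). All these correlations are over libraries that share the same group differences and size factors, and they describe likeness only.

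*Angptl6* was most like *Fkbp2* (0.84), *Cenpm* (0.82), *Nudt2* (0.80), *Tmem218* (0.80) and *Calr* (0.80), and within groups *Cenpm* (0.85), *Calr* (0.85) and *Cox4i2* (0.85). The low-count gene *Angptl1* was most like *Gm44913* (0.79), *4930509H03Rik* (0.78), *Gm42688* (0.69), *Gm42445* (0.69) and *Ifitm7* (0.67), and within groups *Gm44913* (0.82), *4930509H03Rik* (0.79) and *Gm42597* (0.71). Between the members themselves, the correlation over the 26 mice ran from -0.39 for *Angptl1* and *Angptl6* to 0.46 for *Angptl4* and *Angptl6*. *Angptl2* and *Angptl4*, the called members, had 0.28, and 0.01 after group means were subtracted.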

How the data were processed

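RNA from whole retinas of 27 mice was sequenced without strand information, and 26 were compared. The authors aligned reads with STAR 2.7.8a, counted them per GENCODE M28 gene (GRCm39) with featureCounts 2.0.1 and divided the counts by DESeq2 1.34 size factors. The deposited values are therefore a normalized signal per gene. All low values were whole multiples of 1 read (tolerance 0.001), so counts were recovered in 100% of values for count tests. Deposited columns with the authors' group means, fold changes and p-values were not used.

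Values were transformed as log2(normalized reads + 1) from the deposited signal and fitted with limma 3.58.1 (eBayes with trend) in 1 model over 4 groups, without covariates, for 27137 genes with a mean of at least 1. P-values were adjusted by Benjamini-Hochberg, and calls were made under 0.05. Single genes were also compared by exact two-sided permutation tests. Alternatives included edgeR 4.0.16 and DESeq2 1.42.0 on recovered reads. The fit was tested on simulated data. No 2 mice of a group agreed within sampling noise (lowest chi-square per degree of freedom 9.39).

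Exon lengths came from GENCODE M21 and promoters from RefSeq, both GRCm38. The named genes were the 4 members, the 2 largest rises and falls called at p17 in each list, genes with a direct role toward a member, neighbours within 10 kb, and the 5 most alike genes over mice and 3 within groups. *Fabp4*, *Acaa1a*, *Slc25a20*, *Apoe* and *Ptprb* and marker genes were named after their values were seen. *Vegfa*, *Angpt1*, *Angpt4* and *Tek* were named outside these rules. Members and lists were chosen with earlier results of these data known. *Apoc2* and *Lim2* were not analysed here, and some other genes of these lists are not reported here. Mice of equal number did not deviate together, so the numbers were not used as pairs.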

Additional observations from a re-analysis of the deposited data

Results flagged for a closer look

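*Angptl2* in the OIR p14 mouse S4 stood apart from the rest of its group, with 640 normalized reads against 353 for the next mouse. On the scale of normalized reads the gap was 0.721 of the group's range, above Dixon's limit of 0.625 for 6 samples. On the log2 scale used in the fits (9.33, next 8.47, lowest 7.92) the gap stayed below that limit, so the flag depends on the scale. In all, 16 sets of values were checked, of which chance would pick about 1 in 20.

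The OIR effect on *Angptl4* differed between the ages by 1.46 on the log2 scale (limma adjusted p = 0.00629), with a value below 0 at p14 and above 0 at p17.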

How the results depend on the processing

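The calls of *Angptl2* at p14 and p17, of *Angptl4* at p17 and of its difference between the ages held under every alternative run, including each fit without 1 mouse. The *Angptl4* decrease at p14 was called in 5 of 13 alternatives. It was -0.68 in the compared groups only (adjusted p = 0.0415), -0.74 after quantile normalization (0.0439), -0.75 with *Cryaa* (0.0354) and -0.68 with *Rpe65* (0.0339) as covariate, and -0.68 in DESeq2 (0.0349). Without 1 mouse it ranged from -0.77 to -0.59, and it was called without OIR p14 S2 (adjusted p = 0.0376) and OIR p17 S3 (0.035).

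Uncalled values near 0 changed sign. *Angptl1* at p17 was -0.0860 and *Angptl6* at p17 was -0.0014 after quantile normalization. *Angptl1* from p14 to p17 in OIR was 0.0386 in edgeR and 0.0236 in DESeq2. *Angptl2* over age in nOIR was -0.0268 with the same total per mouse and -0.0640 with *Cryaa*, and *Angptl6* was 0.0250 with mouse S4 included. Without 1 mouse, *Angptl1* ranged from -0.15 to 0.28 at p17 and from -0.22 to 0.14 over age in OIR, *Angptl2* from -0.0515 to 0.18 and *Angptl6* from -0.12 to 0.03 over age in nOIR, and the *Angptl2* difference between ages from 0.63 to 0.98. The cause was not tested. *Angptl6* kept its sign without 1 mouse but ranged from -0.36 to -0.11 at p14 and from 0.03 to 0.27 at p17. *Angptl1* at p14 likewise ranged from -0.28 to -0.03.

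With the replicate number as a block (replicate block), *Angptl2* at p17 was 2.46 and the *Angptl4* difference 1.43 (adjusted p = 0.0132), with *Angptl1* over age in OIR at 0.0841 and *Angptl6* over age in nOIR at 0.0168. The block changed no call of the 4 genes. Correlations of same-numbered mice were -0.11 to 0.14. Among angiopoietin and Tie genes 2 in place of 1 were lower at p14 in 6 of 13 alternatives, and counts of 1 or 2 in the PPAR and lipase lists moved by 1. The difference between ages could not be fitted in the compared groups only.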
